A study of Homo sapiens with 3 samples.

Results

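After 3 days of the culture that the labels call GiMO, 115 of 7261 kept cells (1.58%, exact binomial 95% interval 1.31 to 1.90) carried TBXT without MESP1 or SOX2 and without high LHX1. These 115 cells are described here. The cells were chosen by their own measured counts of 4 genes. Barcodes had to show 1000 genes or more, with 20% or less of their UMIs (unique molecular identifiers, the counted mRNA molecules) from mitochondrial genes. The rule then required at least 2 UMIs of TBXT, 0 of MESP1, 0 of SOX2 and fewer than 10 of LHX1. The TBXT and MESP1 conditions alone were met by 144 kept cells of day 3 (1.98%). The whole series held 18830 kept cells, and the same gate took 32 of 3677, 660 of 7892 and 115 of 7261 kept cells at days 1, 2 and 3. All cells came from UCLA1, an established line of human embryonic stem cells, and grew beneath a layer of the basement membrane extract Geltrex. The labels give 1 library per day, made on the droplet platform of 10x Genomics, and do not say whether BMP4 or another agent was added on any day. The title of the series names BMP4 responses among its subjects.

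The gate cells were set against 3 other groups of cells, all of the same line and culture. The 835 double-positive cells of day 3 met the same conditions but had at least 1 UMI of MESP1. The 3816 TBXT-zero cells of day 3 were all kept cells of that library without a TBXT UMI. The 660 day 2 gate cells met the rule a day earlier. The rule read counts of the same cells, so every contrast of the gate with other cells is a description with no test, and cells of 1 library are not replicates. Levels are given in CPM, the UMIs of a gene per 1000000 UMIs summed over the cells of a group, and bracketed intervals are exact 95% intervals that cover counting error only. PCR duplicates are collapsed by the UMIs, but cells, cultures and libraries add spread that these intervals do not hold.

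The primitive streak is the region where epiblast cells leave the epithelium and become mesoderm or endoderm. TBXT encodes brachyury, a T-box factor of the streak and of posterior progenitors, and MESP1 a basic helix-loop-helix factor that marks mesoderm as it leaves the streak. WNT and NODAL signals induce the streak, and human primordial germ cell-like cells made in culture, which express NANOS3, SOX17, TFAP2C and PRDM1, arise through a state with TBXT. EVX1, a homeobox repressor, and CDX1, a caudal-type homeobox factor and WNT target, mark the late or posterior streak.

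The label of late streak was only partly borne out by these markers. EVX1 (ENSG00000106038, chromosome 7, 27242700 to 27250493, GENCODE release 44 on hg38) was at 42.9 CPM (34.9 to 52.3) in gate cells, 46.2 CPM in double-positive cells, 32.5 CPM in TBXT-zero cells and 31.6 CPM in day 2 gate cells. CDX1 (ENSG00000113722, chromosome 5, 150166778 to 150184558) was at 28.2 CPM (21.8 to 35.9) in gate cells, 46.4 CPM in double-positive cells, 11.0 CPM in TBXT-zero cells and 40.2 CPM in day 2 gate cells. EVX1 was thus 1.32-fold (1.07 to 1.61) and CDX1 2.56-fold (1.95 to 3.29) the level of TBXT-zero cells, and neither marker was higher in the gate than in double-positive cells. An EVX1 UMI was seen in 56 gate cells (48.7%) at a median depth of 18734 UMIs and in 39.5% of TBXT-zero cells at 17799 UMIs. A CDX1 UMI was seen in 39 gate cells (33.9%) and in 14.6% of TBXT-zero cells. With each cell thinned to 5000 UMIs the EVX1 shares were 19.5% in gate cells and 14.4% in TBXT-zero cells, and the CDX1 shares were 10.6% and 5.21% in the same order. Both markers were seen in 20 gate cells and neither in 40, and EVX1 was seen in 15 and CDX1 in 6 of the 31 gate cells that carried germ cell genes, which are described below. The cells are therefore called TBXT gate cells here.

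MIXL1, a paired-type homeobox factor of the streak, and SP5, a zinc-finger target of WNT signalling, are streak genes whose levels differed among the gate cells, as described below. Their promoter windows are shown because each holds the core letters bound by TCF/LEF factors, the nuclear partners of beta-catenin. The windows run from 250 bases before to 50 bases after the start of the gene in RefSeq on GRCh38 and are read 5′ to 3′ on the plus strand, with CTTTGAT in capitals.
SP5, chr2:170715087-170715386: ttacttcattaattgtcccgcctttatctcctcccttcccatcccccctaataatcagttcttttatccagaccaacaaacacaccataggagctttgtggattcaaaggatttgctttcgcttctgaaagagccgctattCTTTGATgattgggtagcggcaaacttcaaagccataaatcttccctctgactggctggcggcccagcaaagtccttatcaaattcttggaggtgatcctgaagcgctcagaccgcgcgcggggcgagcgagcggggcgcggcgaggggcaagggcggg
MIXL1, chr1:226223414-226223713: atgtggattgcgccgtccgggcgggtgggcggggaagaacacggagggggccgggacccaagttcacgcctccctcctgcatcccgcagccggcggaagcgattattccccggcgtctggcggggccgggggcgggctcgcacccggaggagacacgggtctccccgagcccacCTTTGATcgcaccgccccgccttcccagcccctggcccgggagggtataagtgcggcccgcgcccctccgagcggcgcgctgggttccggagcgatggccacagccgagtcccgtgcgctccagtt
CTTTGAT or its reverse complement was searched on both strands. It began at position -109 relative to the start of SP5 and at position -76 relative to the start of MIXL1. Among 9 genes of the streak and of the WNT response looked up, 8 were in the table and only these 2 held it. Of all 35116 promoter windows 919 (2.62%) held the letters, and a match is a description of the sequence, not a binding site.

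The counts that the gate reads were low. Of the gate cells 62 had 2 TBXT UMIs, 21 had 3, 17 had 4 and the other 15 had 5 to 11. LHX1, a LIM-homeobox factor of early mesoderm, was at 0 in 78 gate cells and at 5 UMIs at most. Gate cells held 2482 to 50186 UMIs, with a median of 18734, against medians of 21017 in double-positive cells, 17799 in TBXT-zero cells and 17258 in day 2 gate cells. Libraries shared 5 kept barcodes between days 1 and 2, 10 between days 1 and 3 and 13 between days 2 and 3, and 0 of these were gate cells. Read on counts thinned to 5000 UMIs, the gate took 84 cells, and only 23 of them were among the 115, so which cells are members depended on the sampling of few molecules.

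Cells just outside the gate were compared with those just inside at each bound. The 62 members with 2 TBXT UMIs had MIXL1 at 439 CPM, NODAL at 124 CPM and HAND1 at 101 CPM. The 110 cells that met the other conditions with 1 TBXT UMI had MIXL1 at 151 CPM, NODAL at 58.2 CPM and HAND1 at 332 CPM. HAND1 is a basic helix-loop-helix factor of lateral and extraembryonic mesoderm. The 67 cells with a single MESP1 UMI were close to the members, with MIXL1 at 582 CPM, NODAL at 155 CPM and HAND1 at 81.9 CPM. The 10 cells with a single SOX2 UMI had MIXL1 at 393 CPM and NODAL at 145 CPM. The 37 members with 1 to 9 LHX1 UMIs had NODAL at 138 CPM and HAND1 at 64.2 CPM, while the 6 cells with 10 or more LHX1 UMIs had NODAL at 0 and HAND1 at 327 CPM.

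Germ cell genes were carried by part of the gate cells. A UMI of none of NANOS3, SOX17, TFAP2C and PRDM1 was seen in 60 gate cells, of 1 gene in 14, of 2 in 10, of 3 in 9 and of all 4 in 22. The 31 cells with at least 3 of these genes were 27.0% of the gate and the other 84 were 73.0%. The cut at 3 genes was chosen after the values were seen, so the contrast between the 31 and the 84 is a description, and the 84 include the cells with 1 or 2 of the genes. In the day 2 gate 0 of 660 cells had 3 of the genes, which allows a share of up to 0.455% of cells with such UMIs. Outside that gate 48 kept day 2 cells had at least 3 of them, of which 24 had 2 or more TBXT UMIs and 16 were double-positive.

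NANOS3, an RNA-binding protein of germ cells (ENSG00000187556, chromosome 19, 13862063 to 13880757), had 0 to 16 UMIs in the 31 cells, with a median of 3, and 0 or 1 in the 84 cells. It was at 177 CPM in the 31 cells and 3.04 CPM in the 84 cells. A NANOS3 UMI was seen in 90.3% of the 31 cells, in 5.95% of the 84 cells at a median depth of 18608 UMIs, and in 2.36% of TBXT-zero cells at 17799 UMIs. The interval of the share in the 84 cells (1.96 to 13.3) includes the share of TBXT-zero cells. The TBXT-zero cells include 71 cells with at least 3 of the germ cell genes, so their share is not a background without expression. Whether the 5 of the 84 cells with a UMI express NANOS3 cannot be told from these counts. SOX17, an endoderm and germ cell factor, was at 249 CPM in the 31 cells and 9.13 CPM in the 84 cells. TFAP2C, an AP-2 factor, was at 258 CPM in the 31 cells and 17.6 CPM in the 84 cells, and PRDM1, a transcriptional repressor, at 302 and 4.87 CPM in the same order. These 4 genes made the split and are no finding about it.

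**Figure D1:**
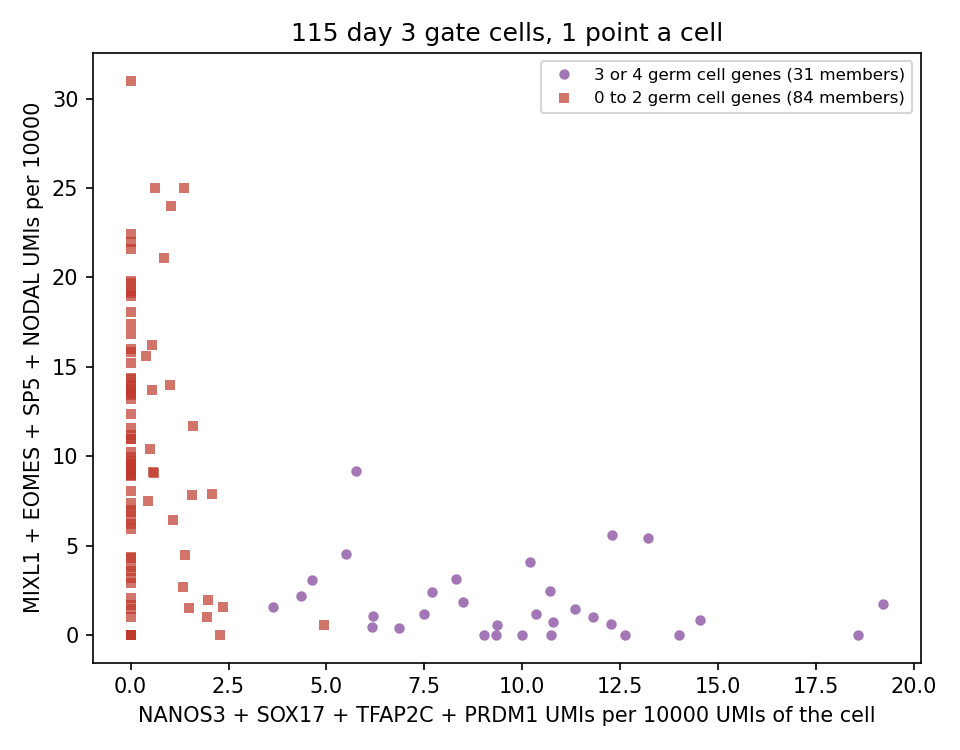
Each point is 1 of the 115 TBXT gate cells of day 3, with the summed UMIs of NANOS3, SOX17, TFAP2C and PRDM1 per 10000 UMIs of the cell on the x axis and those of MIXL1, EOMES, SP5 and NODAL on the y axis. The 31 cells with 3 or 4 germ cell genes (circles) reach 9.19 on the y axis, whereas the 84 other cells (squares) reach 31.0.

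Genes that the split did not read followed it. The summed streak genes MIXL1, EOMES, SP5 and NODAL had a median of 1.15 per 10000 UMIs (0 to 9.19) in the 31 cells and of 9.52 (0 to 31.0) in the 84 cells, so the ranges overlapped but the medians lay far apart. MIXL1 had 0 to 13 UMIs per cell in the 31 cells, with a median of 1, and 0 to 53 in the 84 cells, with a median of 9. EOMES, a T-box factor of streak and endoderm, was at 7.55 CPM in the 31 cells and 137 CPM in the 84 cells. SP5 was at 7.55 CPM in the 31 cells and 179 CPM in the 84 cells. LEF1, a nuclear effector of WNT signalling, was at 6.04 CPM in the 31 cells and 133 CPM in the 84 cells. NODAL, the secreted inducer of the streak, was at 46.8 CPM in the 31 cells and 164 CPM in the 84 cells. FGF4, a secreted growth factor, and DKK1, a secreted WNT antagonist, had 0 UMIs in the 31 cells, which made them at least 6.31-fold and at least 11.3-fold lower than in the 84 cells against a floor of 3 counts over the group.

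The 31 cells were higher in a set of other genes. PDPN, which encodes the surface protein podoplanin, had 5 to 50 UMIs in each of the 31 cells and 0 to 13 in the 84 cells, and its levels were 794 CPM in the 31 cells and 29.2 CPM in the 84 cells. KIT, the receptor that germ cells use for survival, was at 78.5 CPM in the 31 cells and 9.73 CPM in the 84 cells, an 8.07-fold difference (4.53 to 15.1). NANOG, a pluripotency factor that human germ cells retain, was at 202 CPM in the 31 cells and 37.1 CPM in the 84 cells, and every one of the 31 cells had a NANOG UMI. DMD, which encodes dystrophin, was at 4172 CPM in the 31 cells and 366 CPM in the 84 cells, and 5 of the 31 cells held 53.1% of their DMD UMIs. VIM, the intermediate filament vimentin, was at 954 CPM in the 31 cells and 124 CPM in the 84 cells. LEFTY2, a secreted inhibitor of NODAL, was at 367 CPM in the 31 cells and 14.0 CPM in the 84 cells. The NODAL ligand and its inhibitor therefore lay on opposite sides of the split.

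By a call of at least 2-fold with an interval that excludes 1 and at least 10 CPM in the higher group, 824 of 10507 genes (7.84%) were higher and 1093 (10.4%) lower in the 31 cells than in the 84. For members of gene lists the call was 1.5-fold with at least 2 CPM in either group, which took 8.76% of all genes as higher and 10.5% as lower. Of 8 measured germ cell genes 7 were higher and 0 lower, of which 4 made the split. Of 17 posterior streak genes 3 were higher (WNT5A, WNT5B and NKX1-2) and 12 lower, and their median log2 ratio was -1.52 beside -0.10 over all genes. Of 16 WNT response genes 5 were higher, among them AXIN2, and 7 lower, and of 10 NODAL pathway genes 2 were higher and 5 lower. Of 18 genes of G2/M phase 5 were higher and 0 lower, and of 16 genes of S phase 1 was higher and 5 lower.

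**Figure D2:**
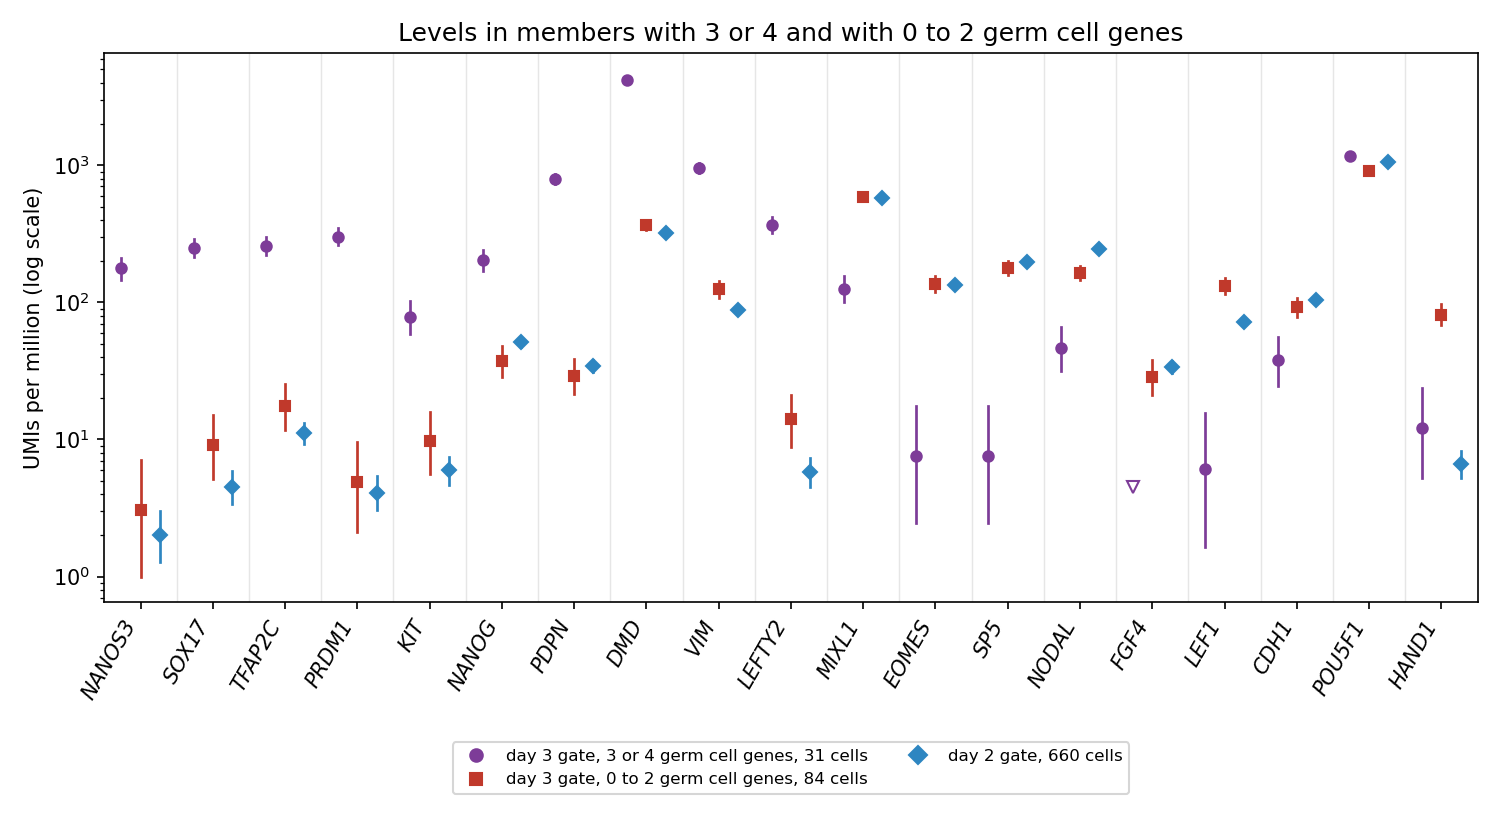
Levels in CPM on a log axis for 19 genes in the 31 TBXT gate cells with 3 or 4 germ cell genes (circles), the 84 other gate cells (squares) and the 660 day 2 gate cells (diamonds), with exact 95% counting intervals; the open triangle marks the floor of 3 counts for FGF4, which had 0 UMIs in the 31 cells. The 84 cells lie near the day 2 gate for MIXL1, EOMES and SP5 and far from it for HAND1, at 81.5 and 6.61 CPM.

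Across the 113 gate cells deep enough to be thinned to 5000 UMIs, the summed germ cell genes ranked with PDPN (Spearman's rho 0.79), DMD (0.73), VIM (0.69) and NANOG (0.52). They ranked against MIXL1 (-0.44), NODAL (-0.37), SP5 (-0.35) and EOMES (-0.31), while rho was 0.03 for EVX1. These values describe cells of 1 library, and the division of the cells into 31 and 84 sets much of them.

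Germ cell genes were not confined to the gate but were more frequent in it than among all kept day 3 cells. At least 3 of the 4 genes were seen in 31 of 115 gate cells (27.0%) and in 184 of all 7261 kept day 3 cells (2.53%). They were seen in 17 of the 835 double-positive cells and in 71 of the 3816 TBXT-zero cells. Cells just outside the gate carried them too, 21 of the 110 with 1 TBXT UMI and 8 of the 67 with a single MESP1 UMI. Of the 84 cells that the gate took on thinned counts, 6 had at least 3 of the genes on their full counts. The share in the gate thus depended on the depth at which the rule was read. The 153 such cells outside the gate had NANOS3 at 94.8 CPM, against 177 CPM in the 31 cells. HAND1 was at 12.1 CPM in the 31 cells and 170 CPM in the 153 cells outside the gate. The definitive endoderm markers were carried by genes shared with germ cells. In the 31 cells SOX17, at the value above, and CXCR4, a chemokine receptor at 90.6 CPM, made up nearly all of their sum, FOXA2 had 1 UMI and HHEX 0, which allows up to 4.53 CPM.

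Against TBXT-zero cells of the same library, the gate cells were lower in mesoderm, HOX and mesenchymal genes and higher in epithelial, pluripotency, germ cell and part of the streak genes. Of 10271 genes that reached 10 CPM in the higher group, 866 (8.43%) were higher and 561 (5.46%) lower in gate cells by the 2-fold call. Against the 722 TBXT-zero cells that also had 0 MESP1, 0 SOX2 and fewer than 10 LHX1 UMIs the counts were 616 higher and 669 lower, and with TMM scaling against all TBXT-zero cells 715 and 668, so the balance of higher and lower calls depended on both choices. Without the 31 cells the counts were 862 (8.37%) and 564 (5.47%) of 10303. For lists, the 1.5-fold call took 17.2% of all genes as higher and 9.03% as lower, and the median log2 ratio of all genes was 0.06. In the 84 cells alone it took 16.1% as higher and 8.35% as lower, and of their 18 posterior streak genes 9 were higher and 2 lower.

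Streak genes were not uniformly higher. Of 18 measured posterior streak genes, 10 were higher and 3 lower in gate cells than in TBXT-zero cells (median log2 ratio 0.81). FGF4 was at 20.4 CPM in gate cells and 1.66 CPM in TBXT-zero cells, 12.3-fold higher (8.55 to 17.3), all of it from the 84 cells. An FGF4 UMI was seen in 23 of the 84 cells, and 5 cells held 57.4% of its UMIs. NODAL was at 130 CPM in gate cells and 16.5 CPM in TBXT-zero cells, 7.90-fold higher (6.94 to 8.98). NKX1-2, a homeobox gene of the posterior epiblast, was at 74.6 CPM in gate cells and 8.47 CPM in TBXT-zero cells. MIXL1 was at 454 CPM in gate cells and 221 CPM in TBXT-zero cells, and SP5 at 130 and 63.0 CPM in the same order. EOMES did not differ beyond counting error, at 99.7 CPM (87.3 to 113) in gate cells and 100 CPM in TBXT-zero cells, and in the 84 cells alone it was at 137 CPM. WNT5A, a noncanonical WNT ligand, was lower, at 54.2 CPM in gate cells and 146 CPM in TBXT-zero cells.

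**Figure D3:**
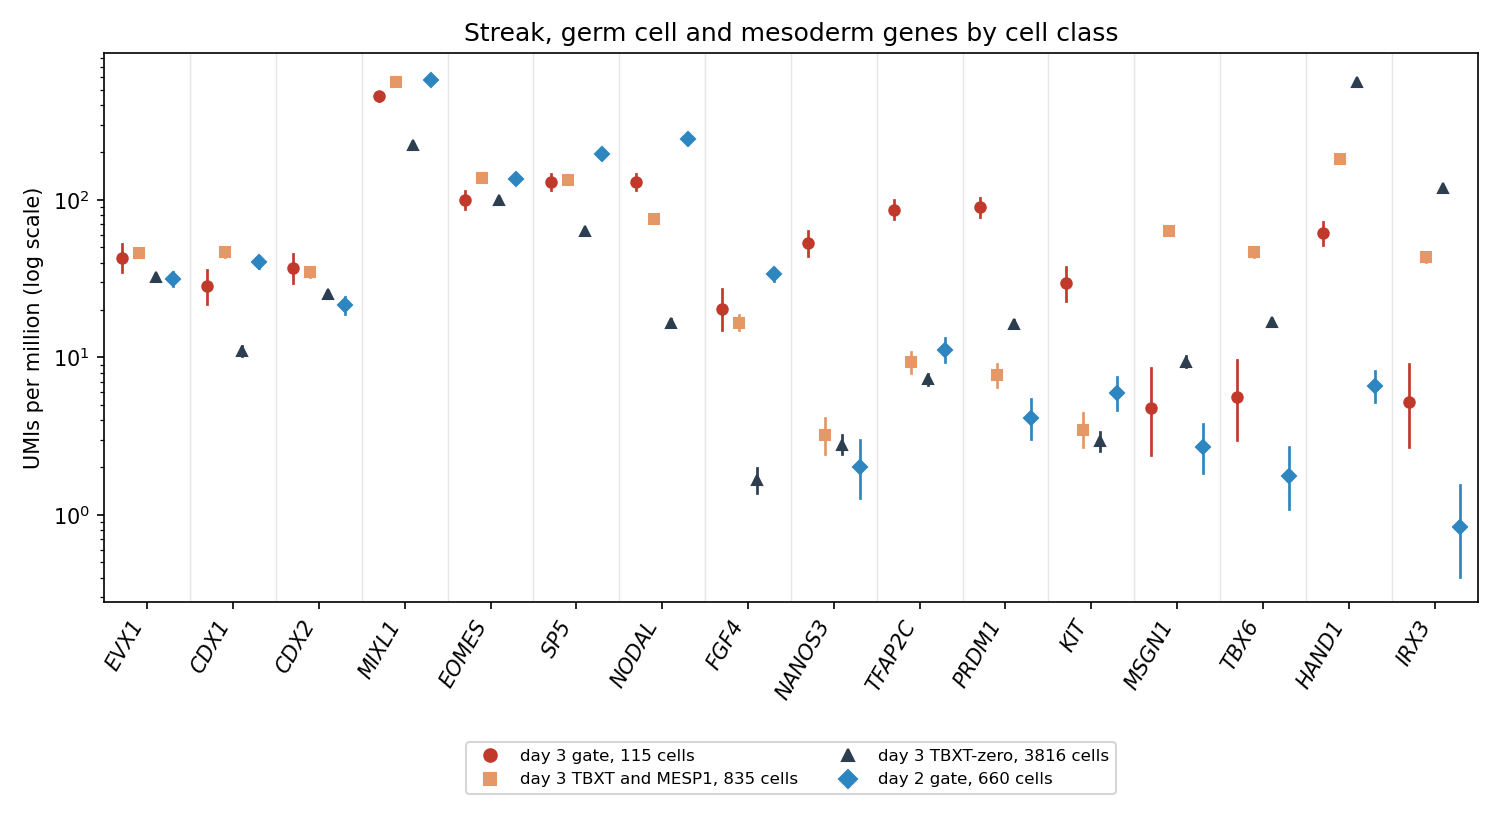
Levels in CPM on a log axis for 16 genes in the 115 TBXT gate cells of day 3 (circles), the 835 double-positive cells (squares), the 3816 TBXT-zero cells (triangles) and the 660 day 2 gate cells (diamonds), with exact 95% counting intervals. The germ cell genes NANOS3, TFAP2C, PRDM1 and KIT are highest in the gate, while HAND1, at 61.6 CPM in the gate, and IRX3, at 5.20 CPM, are highest in TBXT-zero cells.

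Mesoderm genes were low in the gate. Of 13 nascent mesoderm genes 12 were lower and 1 higher in gate cells than in TBXT-zero cells, and of 14 lateral and extraembryonic mesoderm genes 12 were lower and 0 higher, with medians of -2.62 and -2.67. HAND1 was at 61.6 CPM (51.9 to 72.6) in gate cells and 560 CPM in TBXT-zero cells, 9.09-fold lower (7.71 to 10.8), and BMP4 was 8.14-fold lower. GATA6, a zinc-finger factor of mesoderm and endoderm, was at 37.7 CPM in gate cells and 212 CPM in TBXT-zero cells. IRX3, an Iroquois homeobox factor and the gene furthest down, was at 5.20 CPM in gate cells and 119 CPM in TBXT-zero cells, 22.8-fold lower (13.1 to 44.2). Of 25 measured HOX genes, which pattern the body axis, 23 were lower and 1 higher (HOXD1, from 6 UMIs, all in the 31 cells), with a median of -2.33.

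Genes of the epithelial to mesenchymal transition lay on the epithelial side. Of 19 epithelial genes 14 were higher and 0 lower in gate cells than in TBXT-zero cells (median log2 ratio 1.61 in the 84 cells alone), and among 18 mesenchymal genes 13 were lower and 0 higher (median -1.29). CDH1, which encodes E-cadherin, was at 76.8 CPM in gate cells and 30.3 CPM in TBXT-zero cells. ESRP1, an epithelial splicing factor, was at 126 CPM in gate cells, 6.30-fold (5.54 to 7.15) the level of TBXT-zero cells. ZEB2, a repressor of CDH1, was at 13.4 CPM in gate cells and 172 CPM in TBXT-zero cells. CDH2, which encodes N-cadherin, showed no such gap in the gate as a whole, at 333 CPM against 398 CPM in TBXT-zero cells. In the 84 cells alone CDH2 was called lower by the 1.5-fold call. It was 1 of 14 mesenchymal genes lower there, and 1 was higher (VCAN). VIM was lower in gate cells as a whole, at 363 CPM against 1013 CPM in TBXT-zero cells, although the 31 cells were near the TBXT-zero level.

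Pluripotency genes were partly kept. Of 20 measured genes 10 were higher and 2 lower in gate cells than in TBXT-zero cells, with 0.63 as their median log2 ratio. POU5F1 (OCT4) was at 980 CPM in gate cells and 310 CPM in TBXT-zero cells, and its pseudogenes could share reads with it. NANOG was at 84.6 CPM in gate cells and 9.35 CPM in TBXT-zero cells, and at 37.1 CPM in the 84 cells alone. UTF1, a chromatin-bound factor of stem cells, was at 19.5 CPM in gate cells and 1.54 CPM in TBXT-zero cells, and DPPA4 at 258 and 113 CPM in the same order. OTX2, a factor of the anterior epiblast, was lower, at 6.50 CPM in gate cells and 16.0 CPM in TBXT-zero cells. SOX2 was at 0 by the rule.

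Double-positive cells were the nearest group by rule, since they differ from the gate in MESP1 alone. Of 10098 genes 472 (4.67%) were higher and 220 (2.18%) lower in gate cells by the 2-fold call. The 1.5-fold call took 11.5% of all genes as higher and 5.02% as lower. Paraxial mesoderm genes stood lowest, with 0 of 10 higher and 9 lower, at a median of -3.23. FOXC1, a forkhead factor of paraxial mesoderm, was at 1.73 CPM in gate cells and 41.1 CPM in double-positive cells, from 4 UMIs in the gate. DLL3, a Notch ligand, was at 14.7 CPM in gate cells and 189 CPM in double-positive cells, 12.9-fold lower (9.18 to 18.6). MSGN1 and TBX6, the factors that specify presomitic mesoderm, were at 4.77 and 5.64 CPM in gate cells, against 63.4 and 46.5 CPM in double-positive cells. RSPO3, a secreted WNT enhancer, was 13.7-fold lower (9.10 to 21.6) in gate cells.

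**Figure D4:**
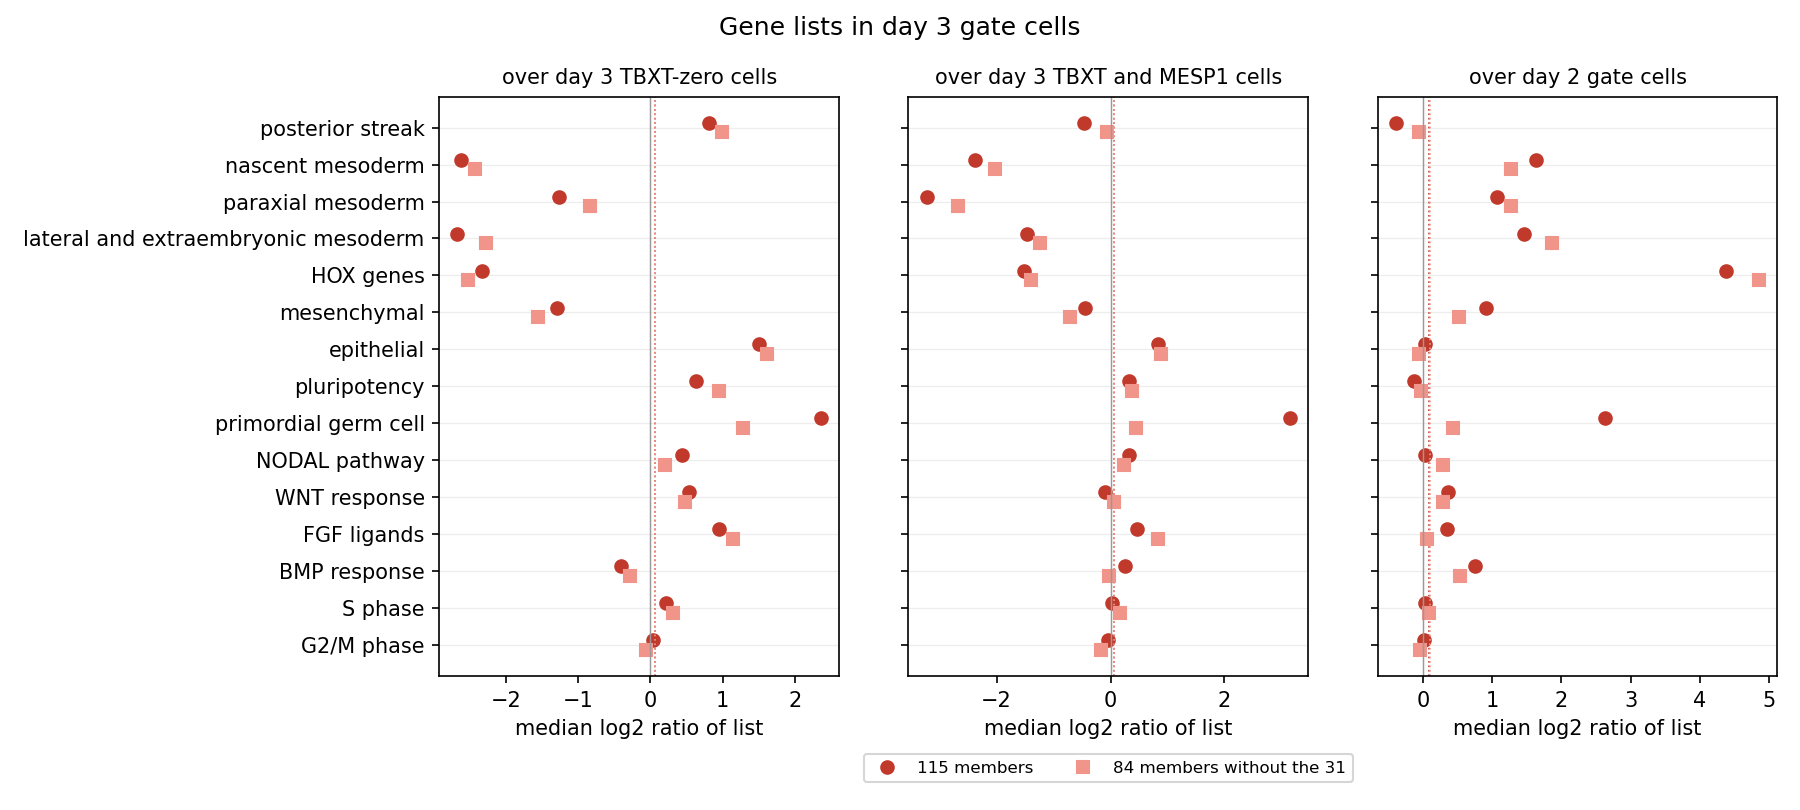
Median log2 ratios of 15 gene lists in TBXT gate cells over day 3 TBXT-zero cells (left), day 3 double-positive cells (middle) and day 2 gate cells (right), for all 115 cells (circles) and for the 84 cells without the 31 (squares). Dotted lines mark the median of all genes. Paraxial mesoderm is at -3.23 over double-positive cells, and HOX genes are at -2.33 over TBXT-zero cells and 4.37 over day 2 gate cells.

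Streak genes were called in both directions over double-positive cells. Of 19 posterior streak genes 2 were higher (NODAL and NKX1-2) and 7 lower in gate cells, among them CDX1, WNT8A, FGF17 and CYP26A1, which breaks down retinoic acid. Their median was -0.47 in all gate cells and -0.06 in the 84 cells, in which 4 were higher (FGF8, FGF4, NKX1-2 and NODAL) and 5 lower. CDX1 was not among those 5, at 34.7 CPM in the 84 cells and 46.4 CPM in double-positive cells, a ratio of 0.747 (0.561 to 0.978). NODAL was at 130 CPM in gate cells and 75.0 CPM in double-positive cells, and at 164 CPM in the 84 cells. Of 19 epithelial genes 12 were higher and 0 lower (median 0.83), and among 18 mesenchymal genes 8 were lower and 0 higher. Of 13 nascent mesoderm genes 10 were lower, and of 21 HOX genes 13.

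In the 84 cells 401 of 10131 genes (3.96%) were higher and 215 (2.12%) lower than in double-positive cells by the 2-fold call. The 1.5-fold call took 9.86% of all genes as higher and 3.92% as lower, and of 20 pluripotency genes 7 were higher and 2 lower, of 11 paraxial mesoderm genes 0 and 8. NANOG was at 37.1 CPM in the 84 cells and 9.40 CPM in double-positive cells, and GDF3, a growth factor of the TGF-beta family, at 47.5 and 11.6 CPM in the same order. GDF3 and KIAA0825, which was at 414 CPM in the 84 cells and 65.0 CPM in double-positive cells, are genes named after their values were seen. The 84 cells were thus still set apart from double-positive cells by mesoderm genes below and by some pluripotency genes above.

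Over the day 2 gate, 398 of 10043 genes (3.96%) were higher and 82 (0.816%) lower in the day 3 gate by the 2-fold call. Day, library and any batch cannot be told apart here. With TMM scaling, which lowered every log2 ratio by 0.12, the split was 340 higher and 132 lower. Without the 31 cells 229 of 10058 genes (2.28%) were higher and 56 (0.557%) lower. The genes furthest up in the whole gate, such as GSTA2, CXCR4, VSTM2B, NRK, WNT2 and NANOS3, had most of their day 3 UMIs in the 31 cells. In the 84 cells VSTM2B was still 8.08-fold (2.95 to 22.5) and NRK 9.19-fold (4.82 to 17.7) the day 2 level, at 6.08 and 14.6 CPM in the 84 cells. For VSTM2B this rested on 10 UMIs in 4 of the 84 cells, against 9 UMIs in 8 of the 660 day 2 gate cells. CXCR4 had 4 UMIs in the 84 cells and 0 in the day 2 gate, at least 9.70-fold higher against a floor of 3 counts over the group. NANOS3, for example, was at 52.9 CPM in the day 3 gate and 2.01 CPM in the day 2 gate, but at 3.04 CPM in the 84 cells, 1.51-fold (0.451 to 4.05) the day 2 level.

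In the 84 cells MIXL1, EOMES and SP5 were near their day 2 levels, while other streak genes were higher or lower. MIXL1 was at 586 CPM in the 84 cells and 580 CPM in the day 2 gate, and EOMES at 137 and 135 CPM in the same order. SP5 was at 179 CPM in the 84 cells and 197 CPM in the day 2 gate. The ratio intervals were 0.944 to 1.08 for MIXL1, 0.880 to 1.17 for EOMES and 0.803 to 1.03 for SP5, so differences of 1.5-fold lay outside them. NODAL was lower, at 164 CPM in the 84 cells and 245 CPM in the day 2 gate, a ratio of 0.669 (0.588 to 0.758), and FGF8 was 2.40-fold lower (1.45 to 4.25). EVX1 was 1.52-fold (1.18 to 1.94), CDX2 1.56-fold (1.14 to 2.09) and WNT8A 2.86-fold (1.75 to 4.57) higher in the 84 cells. WNT5A was at 37.7 CPM in the 84 cells and 10.8 CPM in the day 2 gate. For lists the 1.5-fold call took 7.47% of all genes as higher and 1.87% as lower in the 84 cells, and of 18 posterior streak genes 6 were higher and 2 lower, at a median of -0.06 beside 0.10 over all genes.

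Later genes of the axis and of mesoderm were higher in the 84 cells than in the day 2 gate. Of 11 measured HOX genes 9 were higher and 0 lower than in the day 2 gate (median 4.86, with genes at 0 entered at the floor of 3 counts). HOXB6 was at 19.5 CPM (13.3 to 27.5) in the 84 cells and 0.251 CPM in the day 2 gate, where it had 3 UMIs, a ratio of 77.6 (24.3 to 396). HAND1 was at 81.5 CPM (68.3 to 96.5) in the 84 cells and 6.61 CPM in the day 2 gate, 12.3-fold higher (9.27 to 16.5). PMP22 was 15.8-fold higher (9.47 to 27.1), APLNR, the apelin receptor, 6.06-fold (4.45 to 8.24) and BMP4 3.64-fold (2.90 to 4.54). Of 13 nascent mesoderm genes 9 and of 10 lateral and extraembryonic mesoderm genes 7 were higher, and 0 were lower in either list.

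Some of these later genes came mostly from few cells. A HOX UMI was seen in 29 of the 84 cells, and 5 cells held 62.3% of the 130 HOX UMIs. HAND1 was seen in 32 of the 84 cells, with at most 24 UMIs, and 5 cells held 60.4% of its UMIs. ANKRD1, a stretch-responsive cofactor, was at 83.3 CPM in the 84 cells and 3.10 CPM in the day 2 gate, and 5 cells held 85.4% of its UMIs. For MIXL1 5 cells held 21.0%. A MIXL1 UMI was seen in 74 of the 84 cells, whereas HOX genes, HAND1 and ANKRD1 were each seen in a minority at this depth. The mesoderm lists as sums were seen in most cells of both groups, which does not tell how widely their rise was shared. A UMI of the nascent mesoderm list was seen in 77 of the 84 cells (median 4 UMIs), and 5 cells held 31.9% of its UMIs. In the day 2 gate it was seen in 548 of 660 cells (median 2). A UMI of the lateral and extraembryonic mesoderm list was seen in 79 of the 84 cells (median 4), and 5 cells held 39.6%. In the day 2 gate it was seen in 607 of 660 cells (median 3).

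**Figure D5:**
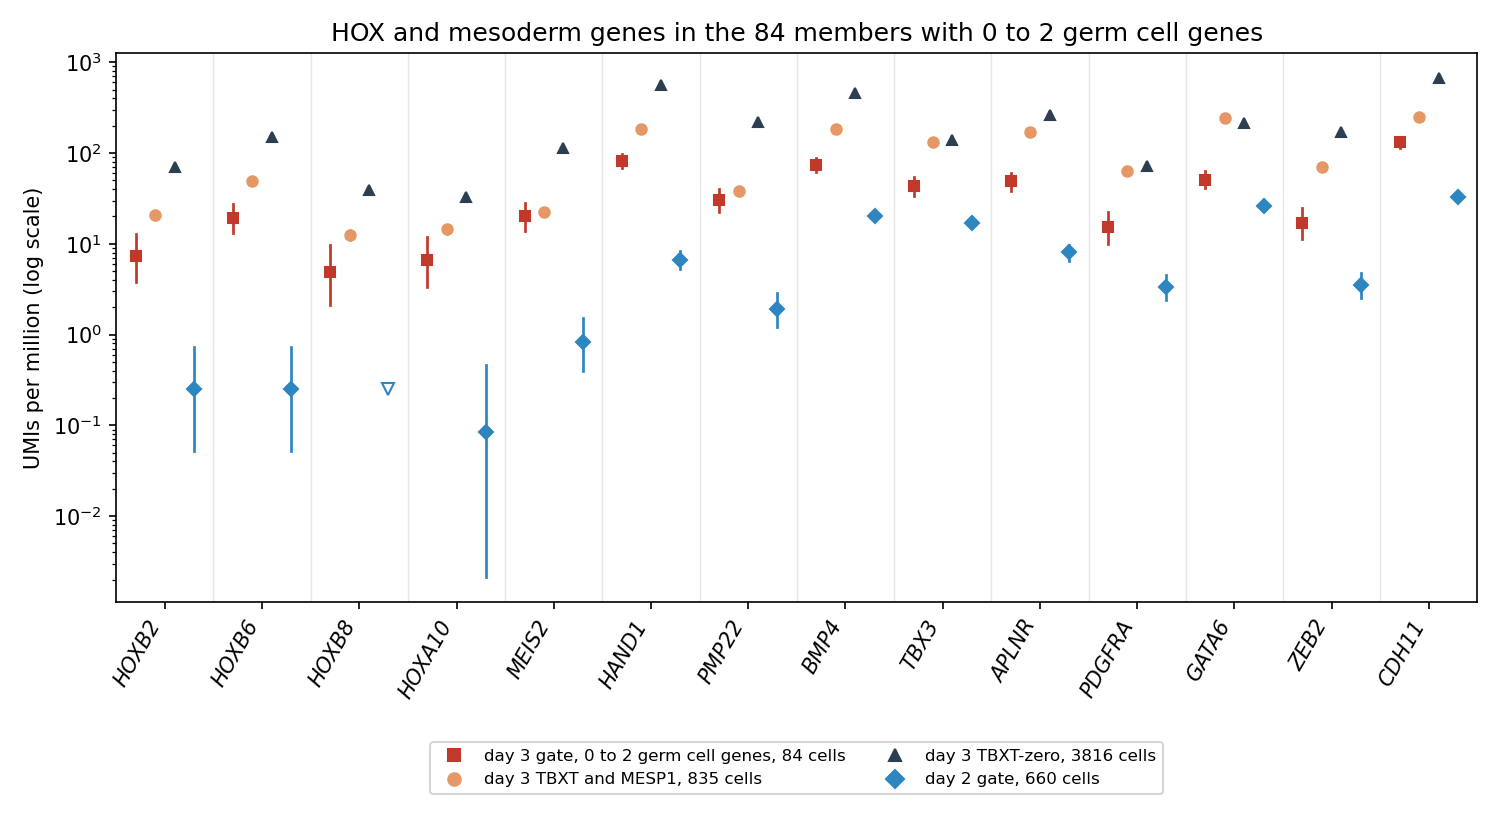
Levels in CPM on a log axis for 14 HOX and mesoderm genes in the 84 TBXT gate cells of day 3 with 2 or fewer germ cell genes (squares), the 835 double-positive cells (circles), the 3816 TBXT-zero cells (triangles) and the 660 day 2 gate cells (diamonds), with exact 95% counting intervals; the open triangle marks the floor of 3 counts for HOXB8, which had 0 UMIs in the day 2 gate. The 84 cells lie above the day 2 gate and below TBXT-zero cells for each gene shown.

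Epithelial and cell cycle lists held few calls over the day 2 gate, and several other lists held more. For all 115 cells the 1.5-fold call took 10.4% of all genes as higher and 3.36% as lower. Higher than in the day 2 gate were 11 of 18 mesenchymal genes, 7 of 12 amnion genes and 5 of 12 Notch pathway genes, and lower were 1, 0 and 0. In the 84 cells 7 of 18 mesenchymal genes and 8 of 12 amnion genes were higher. Of 19 epithelial genes 1 was higher (DSP) and 0 lower in the 115 cells, and 0 of 19 were called in either direction in the 84 cells. CDH1 was at 92.5 CPM in the 84 cells and 105 CPM in the day 2 gate. Of 20 pluripotency genes 2 were higher (NANOG and UTF1) and 3 lower in the 115 cells, and 0 were higher and 1 lower (USP44) in the 84 cells. POU5F1 was at 980 CPM in the day 3 gate and 1061 CPM in the day 2 gate. Of 34 genes of S and G2/M phase 0 were called. CAV1, which encodes caveolin, was the gene furthest down, at 24.3 CPM in the day 3 gate and 94.1 CPM in the day 2 gate, 3.88-fold lower (2.96 to 5.16), and it was also lower in the 84 cells, at 33.5 CPM.

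The same gate stood apart from its own library less at day 2 than at day 3. In the day 2 library 89 of 9777 genes (0.91%) were higher and 119 (1.22%) lower in gate cells than in TBXT-zero cells of day 2. Of 18 posterior streak genes 14 were higher and 0 lower there, at a median log2 ratio of 1.38, beside shares of 3.92% higher and 6.15% lower over all genes. Epithelial genes gave 0 of 19 in either direction at day 2 and 14 of 19 higher at day 3. CDH1 was at 105 CPM in gate cells and 100 CPM in TBXT-zero cells at day 2, and at 76.8 and 30.3 CPM in the same order at day 3. The difference between the days was not tested.

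Genes of the signalling pathways were called in both directions. Of 8 FGF ligands 5 were higher and 1 lower than in TBXT-zero cells, of 10 NODAL pathway genes 4 higher and 2 lower, and of 16 WNT response genes 7 higher and 2 lower. Of 14 FGF receptors and response genes 2 were higher and 6 lower, among them the feedback inhibitors SPRY1, SPRY2 and DUSP6. In the 84 cells 4 NODAL pathway genes were higher and 4 lower, with LEFTY1 and LEFTY2 among the lower ones. AXIN2, a feedback inhibitor of WNT signalling, was at 33.8 CPM in gate cells, 2.25-fold (1.76 to 2.83) the level of TBXT-zero cells. LEF1 was slightly lower in the gate as a whole, at 96.3 CPM against 121 CPM in TBXT-zero cells. It was not lower in the 84 cells alone, at 133 CPM, and was at 6.04 CPM in the 31 cells. Of 10 BMP ligands and antagonists 1 was higher (BMP7) and 6 lower. ID1, a direct target of BMP signalling, was at 545 CPM in gate cells, 338 CPM in double-positive cells, 184 CPM in TBXT-zero cells and 485 CPM in day 2 gate cells. Of 11 BMP response genes 2 were higher (ID1 and ID4) and 5 lower than in TBXT-zero cells, and 7 were higher and 0 lower than in the day 2 gate.

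Markers of other cell types were read beside these results. The paraxial set (MSGN1, TBX6 and DLL3) summed to 25.2 CPM in gate cells and 173 CPM in TBXT-zero cells, and the lateral or extraembryonic set of 5 genes to 137 and 1091 CPM in the same order, with HAND2 at 0 in the gate. The amnion set of TFAP2A, GATA3, ISL1, DLX5 and IGFBP3 summed to 75.0 CPM in gate cells and 134 CPM in TBXT-zero cells. The germ cell set summed to 308 CPM in gate cells and 42.7 CPM in TBXT-zero cells, and to 34.7 CPM in the 84 cells. The definitive endoderm set summed to 107 CPM in gate cells and 25.1 CPM in TBXT-zero cells, and to 12.2 CPM in the 84 cells. Against the 722 TBXT-zero cells with the other conditions of the gate these sums stood differently, since those cells had 39.8 CPM of the paraxial, 992 of the lateral or extraembryonic, 266 of the amnion, 106 of the germ cell and 53.1 of the endoderm set. Of the axial set CHRD and SHH were at 0 in the gate. The neuromesodermal set of SOX2, NKX1-2, CDX2 and WNT3A, with SOX2 at 0 by the rule, had a higher sum in the gate than in TBXT-zero cells. It summed to 121 CPM in gate cells, 95.5 CPM in the 84 cells, 45.2 CPM in TBXT-zero cells and 106 CPM in day 2 gate cells. NKX1-2 made up 74.6 CPM of the sum in gate cells. NKX1-2 and WNT3A were called higher than in TBXT-zero cells, but CDX2 was not. In the 31 cells the set summed to 183 CPM, with WNT3A at 0. The part of such cells in the results was not tested, apart from the counts without the 31 cells.

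The most variable genes among gate cells were partly those of the division into 31 and 84. By the ratio of variance to mean over the 113 thinned cells, where the median of 7368 genes was 1.07, DMD was at 21.6, PEG10, an imprinted gene of retroviral origin, at 10.5, PLPP1, a lipid phosphatase, at 7.94, ACTC1, cardiac actin, at 6.95, ANKRD1 at 6.35 and VIM at 5.94. PEG10 was at 1392 CPM in the 31 cells and 96.7 CPM in the 84 cells, PLPP1 at 1702 and 101 CPM in the same order, whereas ACTC1 was at 75.5 and 69.4 CPM and rested on few cells in both. MATN1, which encodes the matrix protein matrilin, was at 6.88 because all of its 105 UMIs lay in 5 of the 84 cells. TENM4, a teneurin adhesion protein at 6.62, was at 28.7 CPM in the 31 cells and 321 CPM in the 84 cells, so variable genes lay on both sides of the split.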

How the data were processed

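Single-cell libraries of days 1, 2 and 3, 1 per day, were analysed from the UMI count matrices that the authors deposited, which hold whole-number counts per gene and barcode for 36601 genes. Per the submitters' processing notes, Cell Ranger 5.0.1 and hg38 were used, and the labels' protocols give trypsin dissociation and 10x Chromium libraries. Total UMIs were 2306069 over the 115 cells of the gate. The members and gene lists were chosen with earlier results of these data known.

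Barcodes with 1000 genes or more and 20% or less mitochondrial UMIs entered, and counts were summed per class of cells and divided by the class total (CPM). Intervals of levels were exact Poisson and those of ratios exact conditional binomial at 95%. A class at 0 entered ratios and list medians at a floor of 3 counts over the class, and where both classes were at or under the floor no ratio was formed. List counts cover members with at least 2 CPM in either class. The 4 genes the gate reads were left out of counts, lists and ranks. Since each day has 1 library, no test was made and the precision is that of counting only. Genes were named if they read or mark the gate, belonged to the lists at 10 CPM or more, were among the 15 furthest up or down at 20 CPM or more by the interval bound nearest 1, were among the 15 most variable genes, or belonged to a count of 5 or fewer; mitochondrial, ribosomal and clone-named genes were left out. Genes named for the contrasts of the 31 and the 84 cells were chosen after their values were seen, unless they met this rule.

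Doublets were kept in the main results. Simulated doublets (2 per cell, 2000 variable genes, 30 principal components) scored each cell, and an alternative removed the highest 0.8% per 1000 kept barcodes of each library, which were 422 cells of day 3, 2 of them in the gate and 0 among the 31. Other alternatives were TMM and median-of-ratios scaling, other CPM minimums, thinning to 5000 UMIs, stricter cell filters, other bounds of the gate, and leaving out cells with germ cell genes. On simulated counts with 200 genes changed 3-fold, the call recovered 199 of them for the gate against TBXT-zero cells, 197 against the day 2 gate and 196 against double-positive cells. Of the unchanged genes 3, 7 and 5 were called in the same order. The simulated sums held Poisson error only, without spread among cells, and the planted change exceeded the 2-fold call. The recovery therefore checks the code and does not measure precision on these cells. Promoter windows and gene positions came from RefSeq (GRCh38.p14) and GENCODE release 44, and gene IDs matched those of the matrix. Python 3.11.15, NumPy 2.4.6, SciPy 1.17.1, pandas 2.3.3 and matplotlib 3.10.9 were used.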

Additional observations from a re-analysis of the deposited data

How the results depend on the processing

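No paired analysis was possible because each day has 1 library and the labels give no replicate numbers. Of the number of gate cells and the counts of genes past 2-fold, 61 values under the alternatives stayed within 1.5 times the main value and 26 did not. The minimum CPM set the counts of genes. Against TBXT-zero cells, 1747 genes were higher and 877 lower at 2 CPM, 271 and 210 at 50 CPM, and 2008 and 877 without a filter. Against double-positive cells the counts were 1007 and 437, 133 and 74, and 1150 and 437 in the same order. Against the day 2 gate they were 905 and 212, 108 and 13, and 978 and 212. The 82 genes lower than in the day 2 gate became 132 with TMM scaling, 131 with median-of-ratios scaling, 154 on counts thinned to 5000 UMIs, 126 with at least 3 TBXT UMIs and 141 with LHX1 at 0, and beyond the scaling itself the cause was not tested. The 398 genes higher than in the day 2 gate became 229 without the 31 cells with germ cell genes, an alternative chosen after seeing the data. The gate held 53 cells with at least 3 TBXT UMIs and 225 with at least 1.

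Scaling by TMM lowered every log2 ratio by 0.16, 0.12 and 0.11 against TBXT-zero, day 2 gate and double-positive cells. Without the 31 cells, log2 ratios over double-positive cells turned to -1.30 for GPX2, -1.81 for GSTA2, -0.075 for NANOS3 and -0.66 for PRDM1, and that over TBXT-zero cells to -2.30 for GSTA2. With list members of at least 10 CPM, the neural ectoderm median turned to -0.44 over TBXT-zero cells and -0.040 over double-positive cells, and the definitive endoderm median over TBXT-zero cells turned to 0.92, and to 0.97 on thinned counts. Leaving out each replicate in turn could not be run with 1 library a day. Against TBXT-zero cells with the other exclusions 22 of 30 log2 ratios of named genes moved beyond their intervals and 8 did not. Depth limits which cells are members, since the gate turns on 1 or 2 molecules per cell.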
